A study of Mus musculus with 4 samples.

Results

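The Klr and Clec genes encode C-type lectin-like proteins, among them the Ly49 and other lectin-like receptors of natural killer (NK) cells. DNA methylation at these genes was measured in mouse leukaemic cells by methylated DNA immunoprecipitation on promoter arrays (MeDIP-chip). Genes were taken by name: those starting with Klra, Klrb, Klrc, Klrd, Klre, Klrg, Klrh, Klri, Klrk or Clec, with at least 3 probes whose input DNA signal was well above background on all 4 arrays. Of 57 such names on the array, 42 met the rule (15 Klr and 27 Clec genes), out of 18332 genes with enough probes in all. The remaining 15 names had fewer passing probes, and 11 of them were Ly49 genes (Klra3, Klra6, Klra8, Klra9, Klra10, Klra12, Klra13, Klra18, Klra19, Klra23 and Klra33). The others were Clec2l, Klrb1b, Klrc2 and Klrc3.

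There were 4 groups with 1 array each: WT cells and KO cells, each untreated or given 20 nM decitabine every 24 h for 3 days, with harvest at 72 h. Decitabine is a cytidine analogue that inhibits DNA methyltransferases. All cells were grown with serum, human interleukin-6, murine interleukin-3 and murine stem cell factor. The labels do not agree on the KO allele: the source names read Mll5KOHM against Mll5WTHM, the cell line field reads MII5 in every group, and the genotype field of the KO samples reads HOXA9 KO, so the groups are called KO and WT here. Input DNA of the 39 Hoxa9 probes differed between KO and WT by -0.20 ± 0.48 (log2, SD over probes) without treatment and by -0.28 ± 0.66 with decitabine, and the probes of a promoter array need not lie in the deleted part. No marker of cell identity is measured by an array of genomic DNA. Nothing in the labels gives the number of cultures or clones behind a group.

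Ly49 proteins, encoded by the Klra genes, are mouse NK receptors that bind major histocompatibility complex (MHC) class I molecules and either inhibit or activate the cell. NKR-P1 receptors (Klrb1 genes) bind proteins of the Clec2 family, whose genes lie between them. CD94 (Klrd1) pairs with NKG2 proteins (Klrc genes), and NKG2D (Klrk1) binds stress-induced ligands. The Dectin-1 and Dectin-2 groups are C-type lectin receptors of myeloid cells that sense microbial sugars and cell debris. Most of these genes sit in clusters on mouse chromosome 6. For some of the NK receptor genes, expression in lymphocytes is known to be linked to promoter methylation.

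On mm9 (NCBI build 37), 36 of the 42 genes lay on chromosome 6. The probes of 23 of them span chr6:128570631-131197762, the NK gene complex, and those of 9 span chr6:122866721-123244912, the cluster that holds Dectin-2 (Clec4n). The other 10 genes lay elsewhere, among them Clec11a on chromosome 7, Clec4g and Clec3a on chromosome 8, Clec3b on chromosome 9, Clec14a on chromosome 12 and Clec16a on chromosome 16. Of the 558 kept probes of the 42 genes, 87 overlapped an exon of any annotated gene. Another 215 lay in an intron of any annotated gene and 256 were intergenic. All 1043 probes that carry these names matched the genome exactly once, at the stated position. Within the NK gene complex, 16 of 550 probes also had a copy of at least 90% identity over at least 90% of their length, so cross-hybridisation is possible for these. Among kept probes these were 4 of NKR-P1, 2 of Ly49 and 1 of Clec2 genes.

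Few of these probes had MeDIP signal at all, so the probes that did are shown first. The sequences are the 6 with the highest mean MeDIP signal among the 9 probes that were well above background on all 4 arrays. All are written 5′ to 3′ on the plus strand of mm9, with CG dinucleotides, the sites of methylation in mammalian DNA, in capitals.
Clec3a, intergenic, chr8:116938670-116938729: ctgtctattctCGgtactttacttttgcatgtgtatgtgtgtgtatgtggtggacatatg
Klri2, intergenic, chr6:129690728-129690787: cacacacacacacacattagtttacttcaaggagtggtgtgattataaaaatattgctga
Klrb1c, intergenic, chr6:128743137-128743191: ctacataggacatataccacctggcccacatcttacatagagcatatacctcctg
Clec4a1, intronic, chr6:122872624-122872683: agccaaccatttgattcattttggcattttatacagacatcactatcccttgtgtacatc
Clec4n, intergenic, chr6:123179158-123179217: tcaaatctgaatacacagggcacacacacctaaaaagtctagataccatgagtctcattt
Clec3a, intronic, chr8:116942989-116943045: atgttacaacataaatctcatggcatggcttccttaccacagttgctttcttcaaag
Only the first of these 6 sequences holds a CG. MeDIP fragments are longer than a probe, and the 500 bp around the 6 probes held 6, 0, 3, 5, 3 and 6 CpGs in the order shown. The Klri2 window had bright MeDIP signal without a CpG, as did that of the Klrc1 probe at chr6:129631377-129631434.

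A run of CA or TG dinucleotides stood in some of these 9 windows. At least 6 CA or TG units in a row (written CACACACACACA or TGTGTGTGTGTG) were found in the 500 bp around 4 of the 9 probes, those of Klri2, Clec4a1, Klrc1 and the intronic Clec3a probe. The same motif stood in 39 of the 482 windows of these genes whose probes were bright on no array (8.09%). Over all kept probes of the array the shares were 10.2% of 8687 and 5.45% of 266638. This motif was searched after the sequences had been seen, and the counts are a description.

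In what follows, a level is the mean log2 ratio of MeDIP over input over a gene's kept probes, with each array's median kept probe set to 0. A probe is called bright where its MeDIP signal was well above background. The level of a gene without a bright probe is given as a measured ratio and not read as methylation. Where the MeDIP signal was near background, the scanner software had replaced it by a surrogate value, at 56.6% and 63.4% of the genes' probes on the WT and KO untreated arrays, and at 45.5% and 40.9% on the WT and KO decitabine arrays. With 1 array per group, the comparisons of 1 array with another have no test, and differences are given with the SD over probes, which is not an error between cultures.

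The receptor genes were CpG-poor and largely dim in MeDIP. Their median gene had 2.69 CpGs per 500 bp, against 11.8 over all genes, and the exceptions were Klrg2 with 25.5, Clec16a with 23.4 and Clec11a with 14.0. Bright probes numbered 18 of 558 (3.23%) in WT untreated cells, 11 (1.97%) in KO untreated cells, 56 (10.0%) in WT decitabine cells and 63 (11.3%) in KO decitabine cells. Over all kept probes the shares were 4.08%, 4.09%, 14.2% and 16.1%. More probes were bright on both decitabine arrays, in the receptor genes and across the array alike. The lowest bright MeDIP signal also differed between arrays, from 10.47 (log2) in WT untreated cells to 9.74 in KO decitabine cells, and with the highest of these as a single threshold the counts were 18, 11, 37 and 39. Why the decitabine arrays had more MeDIP signal was not tested.

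By CpG content, the share of bright probes was lower in the receptor genes than in other probes in 14 of 20 pairs of class and array, and higher in 6, with no test. Among probes with 0 to 2 CpGs in 500 bp, which make up 41.9% of the receptor probes and 14.4% of the others, the WT and KO untreated shares were 1.71% and 1.28% against 3.00% and 2.43%. With decitabine they were 5.98% and 7.69% against 7.34% and 8.22%. The receptor probes were thus below the others on all 4 arrays in this class, as they were for 3 to 5 CpGs. For 6 to 10 CpGs the decitabine shares were 16.8% in WT and 15.8% in KO cells, against 16.8% and 20.2%. For 11 to 20 CpGs they were 13.8% and 10.3% of 29 probes, both below the other probes (17.3% in WT cells). The class of over 20 CpGs went the other way with decitabine: 7 of its 19 receptor probes (36.8%) were bright in WT and in KO cells, against 17.9% and 19.3% of other probes. All 7 were probes named for Clec11a, a growth factor gene, Clec16a, an autophagy gene, and Klrg2. They therefore do not describe the receptor genes as a set. Those named for Clec11a lay upstream of that gene, at -3117, -3769, -3939 and -4271 bp from its start site.

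**Figure D1:**
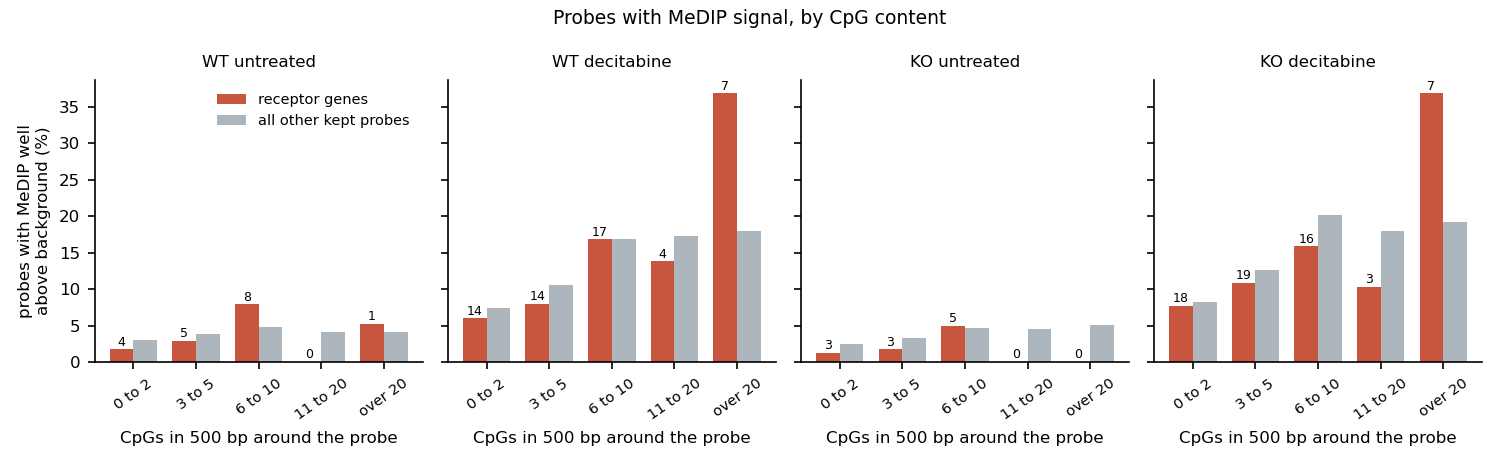
Percent of kept probes with MeDIP signal well above background on each array, by the number of CpGs in the 500 bp around the probe, for the receptor genes (red, number of bright probes above each bar) and all other kept probes (grey). Both sets have more bright probes on the decitabine arrays, and 7 of 19 receptor probes with over 20 CpGs were bright there in WT and in KO cells. These 7 were named for Clec11a, Clec16a and Klrg2.

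By gene, 14 of the 42 had a bright probe on at least 1 untreated array, 15 had one on decitabine arrays only, and 13 had none on any array. On the WT and KO untreated arrays 13 and 9 of the 42 had a bright probe, against 47.1% and 46.2% of all genes. On the WT and KO decitabine arrays 28 and 27 had one, against 82.0% and 84.3%. No gene of the 42 was bright on untreated arrays only, and no array-wide share is given for this or for the split above. The 13 without a bright probe were the 4 Ly49 genes, Klrb1a, Klri1, Clec2d, Clec2g, Clec2h, Clec1a, Clec9a, Clec4d and Clec5a. The reverse pattern, bright on both untreated arrays and neither decitabine array, was seen at 0 of the single probes and at only 6 of all 328399 kept probes. Of the single probes, 27 were bright on both decitabine arrays and neither untreated array (4.84%, against 6.87% of all kept probes). These 27 probes carried the names of 17 genes, with 6 named for Clec11a, 3 for Clec3b and 2 each for Clec16a, Clec4a1 and Clec4g.

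**Figure D2:**
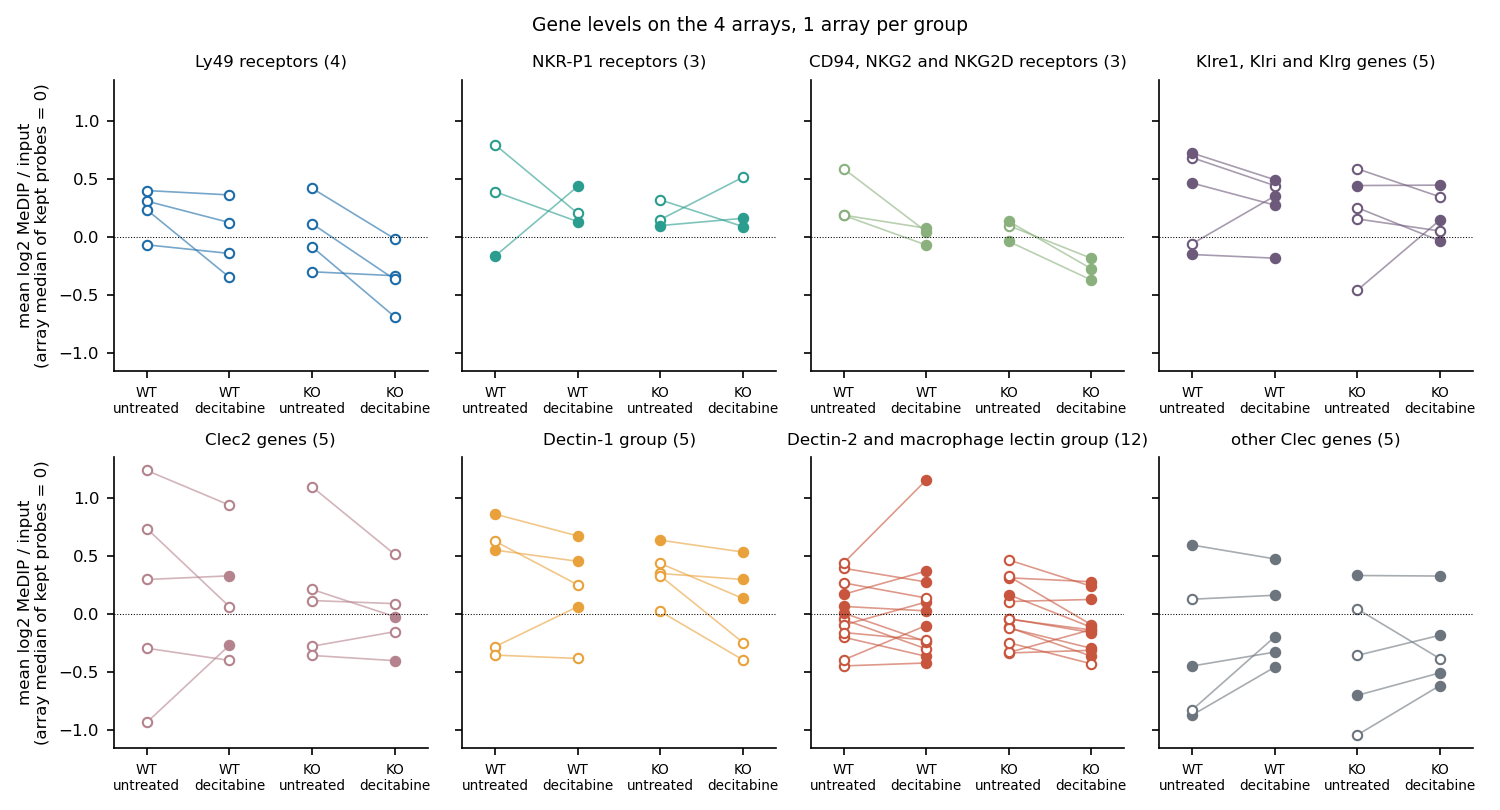
Level of each of the 42 genes (mean log2 MeDIP over input, array median of kept probes at 0) on the 4 arrays, by receptor group, with lines joining untreated and decitabine values of 1 genotype. Filled points have at least 1 bright probe, and all points of the 4 Ly49 genes are open.

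The 4 Ly49 genes with enough probes had no bright probe. None of the 36 kept probes of Klra2, Klra5, Klra7 and Klra17 was bright on any array, and their windows held a median of 2 CpGs. Klra17, the Ly49 gene with most kept probes (14), had levels of 0.31 in WT untreated, 0.12 in WT decitabine, -0.30 in KO untreated and -0.33 in KO decitabine cells. The KO values were the low ones, and 7, 7, 13 and 8 of its 14 probes carried surrogate MeDIP values. Klra5 had levels of 0.23, -0.35, 0.11 and -0.36 in the same order, lower on both decitabine arrays, with 7 of its 8 probes lower in each genotype. Of the 25 probes of Ly49 genes with too few passing probes, 4 were bright on at least 1 array. They lay in Klra3, Klra8, Klra10 and Klra18.

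The 300 bases before the Klra5 start site, on the minus strand at chr6:129867669-129867968, are shown because they hold 0 CpGs. Only 1 kept probe overlaps them, and the 500 bp windows of the Klra5 probes held a mean of 2.75 CpGs.
Klra5: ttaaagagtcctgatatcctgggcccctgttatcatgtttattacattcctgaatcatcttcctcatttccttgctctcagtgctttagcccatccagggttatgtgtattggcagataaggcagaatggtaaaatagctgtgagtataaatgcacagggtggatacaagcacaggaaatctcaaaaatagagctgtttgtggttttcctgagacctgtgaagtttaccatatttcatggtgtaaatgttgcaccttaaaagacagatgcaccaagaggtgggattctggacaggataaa

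Among the NKR-P1 genes, Klrb1c, which encodes the NK1.1 antigen, was the one with signal on every array. Its levels were -0.16 in WT untreated, 0.44 in WT decitabine, 0.10 in KO untreated and 0.16 in KO decitabine cells. The WT untreated value was the lowest and the WT decitabine value the highest. The difference with decitabine was 0.60 ± 0.97 in WT cells (log2, 7 of 10 probes higher) and 0.06 ± 0.64 in KO cells, and most of its 10 probes were not bright. All 10 were intergenic, the nearest at -1805 bp from the start site, and the 2 bright ones lay at -3931 and -4174 bp. No kept probe therefore lay in the gene or next to its start site. The bright Klrb1c probe printed above had a ratio of 0.27 in WT untreated, 1.98 in WT decitabine, 1.08 in KO untreated and 1.04 in KO decitabine cells. Klrb1a, an activating NKR-P1 receptor, had no bright probe.

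The CD94, NKG2 and NKG2D genes had lower levels on the decitabine arrays in both genotypes, without many bright probes. Their bright probes went the other way, from 1 to 5 of 52 with decitabine in WT cells and from 2 to 6 in KO cells. Klrc1, which encodes NKG2A, the inhibitory partner of CD94, had levels of 0.19, -0.07, -0.04 and -0.37 in WT untreated, WT decitabine, KO untreated and KO decitabine cells. Its differences with decitabine were -0.25 ± 0.77 in WT and -0.33 ± 0.75 in KO cells, with 17 of 25 probes lower in each. In the order above, 1, 2, 1 and 3 of its probes were bright. Klrk1, which encodes NKG2D, had levels of 0.59, 0.05, 0.13 and -0.27 in that order, with 0, 1, 1 and 2 bright probes of 13. The WT untreated value was high and had no bright probe behind it. Klrd1 had 2 bright probes in WT decitabine cells and 1 in KO decitabine cells. All 3 genes were below 0 in both decitabine comparisons.

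Among the Klre1, Klri and Klrg genes, Klrg2 was the CpG-rich member. Klre1, a receptor that pairs with Klri proteins, had levels of 0.46, 0.27, 0.25 and -0.03 in WT untreated, WT decitabine, KO untreated and KO decitabine cells, with at most 1 bright probe of 15 on an array. Klri2 had levels of 0.72, 0.49, 0.44 and 0.45, of which only the WT untreated value stood above the others. Klrg2 had 2, 4, 0 and 4 bright probes of 14 and levels of -0.15, -0.18, -0.46 and 0.14. The KO values differed most, at 0.60 ± 0.97 with decitabine. Over the 4 probes bright in KO decitabine cells the ratio was at least 1.36-fold higher there than in KO untreated cells. Dim signals were set to the lowest bright signal of their array. Taking the probes bright in KO decitabine cells favours that direction. In WT cells the Klrg2 difference was -0.03 ± 0.78. The 300 bases before its start site, on the minus strand at chr6:38587240-38587539, held 10 CpGs, and neither of the 2 kept probes there was bright on any array.
Klrg2: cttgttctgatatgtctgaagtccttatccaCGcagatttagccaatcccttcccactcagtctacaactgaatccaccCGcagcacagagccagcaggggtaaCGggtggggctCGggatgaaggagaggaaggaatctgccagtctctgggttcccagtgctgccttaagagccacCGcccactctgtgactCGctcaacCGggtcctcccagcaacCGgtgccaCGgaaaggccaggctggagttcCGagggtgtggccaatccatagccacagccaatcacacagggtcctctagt

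The Clec2 genes, whose proteins include ligands of NKR-P1 receptors, had 0 bright probes of 40 on either untreated array and 2 and 3 on the WT and KO decitabine arrays. Clec2e had levels of 0.30, 0.33, 0.21 and -0.02 in WT untreated, WT decitabine, KO untreated and KO decitabine cells, and 1 and 2 bright probes of 12 on the decitabine arrays. Clec2h had the highest level of the 42 genes in both untreated groups (1.24 in WT and 1.10 in KO cells) and no bright probe among its 5. On each untreated array 2 of the 5 carried surrogate MeDIP values.

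In the Dectin-1 group, Clec7a, which encodes Dectin-1, the receptor for fungal beta-glucan, had levels of 0.55, 0.46, 0.44 and 0.14 in WT untreated, WT decitabine, KO untreated and KO decitabine cells. It had 1, 1, 0 and 1 bright probes of 18. Clec9a, a dendritic cell receptor for exposed actin filaments, had levels of 0.63, 0.25, 0.33 and -0.24 and no bright probe among 13. Clec12a, an inhibitory myeloid receptor, had 5 kept probes and levels of -0.28, 0.07, 0.35 and 0.30, with 1 bright probe on each decitabine array. The WT untreated value of Clec12a was the low one. Clec1b, which encodes the podoplanin receptor CLEC-2 of platelets and was named after its values were seen, held 2, 1, 1 and 4 of the bright probes of the group, out of 3, 3, 1 and 6 in WT untreated, WT decitabine, KO untreated and KO decitabine cells. Its levels were 0.86, 0.67, 0.64 and 0.54, the last of them the highest of the 42 genes on that array.

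In the Dectin-2 and macrophage lectin group, Clec4a3 had several neighbouring bright probes at its start site in 1 group only. Clec4a3, a gene of the dendritic cell immunoreceptor family, had levels of 0.44 in WT untreated, 1.15 in WT decitabine, 0.47 in KO untreated and 0.24 in KO decitabine cells, with 0, 5, 0 and 2 bright probes of 13. The WT decitabine value was the highest of the 42 genes on that array. Of its 5 bright probes there, 4 lay at -839, -678, -26 and 23 bp from the start site, and all 4 were dim in the other 3 groups. Their ratios in WT decitabine cells were 2.99, 2.18, 1.82 and 2.32, against 0.81, -0.23, -0.83 and 0.47 in WT untreated and 1.95, 0.74, -1.07 and -1.15 in KO decitabine cells. Over the 5 bright probes the ratio was at least 1.28-fold higher in WT decitabine than in WT untreated cells. These 5 were taken because they were bright in WT decitabine cells, which favours that direction. Over all 13 probes KO decitabine was below WT decitabine by 0.91 ± 1.40 (log2), with 8 of 13 probes lower. In KO decitabine cells 2 of the 13 probes were bright and 6 carried surrogate values. The difference falls short of the call rule given below. The gene was singled out by its values. The 300 bases before its start site, on the plus strand at chr6:122902233-122902532, held 4 CpGs.
Clec4a3: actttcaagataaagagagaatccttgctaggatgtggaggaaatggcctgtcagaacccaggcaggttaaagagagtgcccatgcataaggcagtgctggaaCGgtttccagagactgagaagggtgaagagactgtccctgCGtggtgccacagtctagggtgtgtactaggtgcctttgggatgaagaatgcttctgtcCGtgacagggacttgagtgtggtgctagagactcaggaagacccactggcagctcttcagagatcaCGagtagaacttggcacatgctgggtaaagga

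Other genes of the group differed less between arrays. Clec4a1 had levels of 0.17, 0.37, 0.31 and 0.28 in WT untreated, WT decitabine, KO untreated and KO decitabine cells. Clec4n, which encodes Dectin-2, had 0.07, 0.03, 0.17 and -0.11, and Clec4e, which encodes Mincle, a receptor for mycobacterial glycolipid, had 0.01, -0.24, -0.12 and -0.29. Clec4f, the Kupffer cell lectin, had -0.44, -0.42, -0.33 and -0.13 over 20 probes. The intronic Clec4b2 probe at chr6:123123774-123123818 was singled out by its nominal difference with decitabine in KO cells, among probes that moved the same way in WT cells, and its window held 2 CpGs.
Clec4b2: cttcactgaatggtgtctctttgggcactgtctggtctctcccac
Its ratio went from -2.62 in KO untreated to -0.08 in KO decitabine cells and from -2.80 to -0.79 in WT cells, and both untreated values rest on a surrogate MeDIP signal, so the sizes cannot be ranked.

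The remaining Clec genes were richer in CpGs, with a median of 6 per probe window, and held 20 of the 56 bright probes in WT decitabine cells and 19 of the 63 in KO decitabine cells. Clec11a, which encodes the growth factor SCGF (osteolectin), had levels of -0.87, -0.46, -0.70 and -0.50 in WT untreated, WT decitabine, KO untreated and KO decitabine cells, and 1, 9, 1 and 8 bright probes of 37. Apart from those at 16, 407 and 547 bp, the bright Clec11a probes lay between -2545 and -5411 bp from its start site. The Clec11a difference with decitabine was 0.41 ± 0.94 in WT and 0.19 ± 0.84 in KO cells (log2), with 22 and 18 of 37 probes higher. Clec16a, a gene of autophagy and mitophagy, had levels of -0.83, -0.20, -1.04 and -0.61, both decitabine values above both untreated ones. Both of its bright probes lay in exon sequence near the start site, in windows of 50 and 48 CpGs, and were bright on both decitabine arrays only. Over them the ratio with decitabine was at least 2.37-fold higher in WT and at least 2.68-fold higher in KO cells, with dim signals set to the lowest bright signal of their array. Both probes were taken because they were bright with decitabine, which favours that direction. The ratio at the probe 13 bp from the start site, singled out by its nominal difference among probes that moved the same way in both genotypes, was -3.78 in WT untreated and -0.45 in WT decitabine cells. Its untreated MeDIP signal was not well above background. Clec3a, a secreted cartilage lectin, had 4, 4, 3 and 5 bright probes of 15 and levels of 0.60, 0.48, 0.33 and 0.33. Clec3b, which encodes tetranectin, had 1, 4, 0 and 4 bright probes of 20 and levels of -0.45, -0.33, -0.35 and -0.18.

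**Figure D3:**
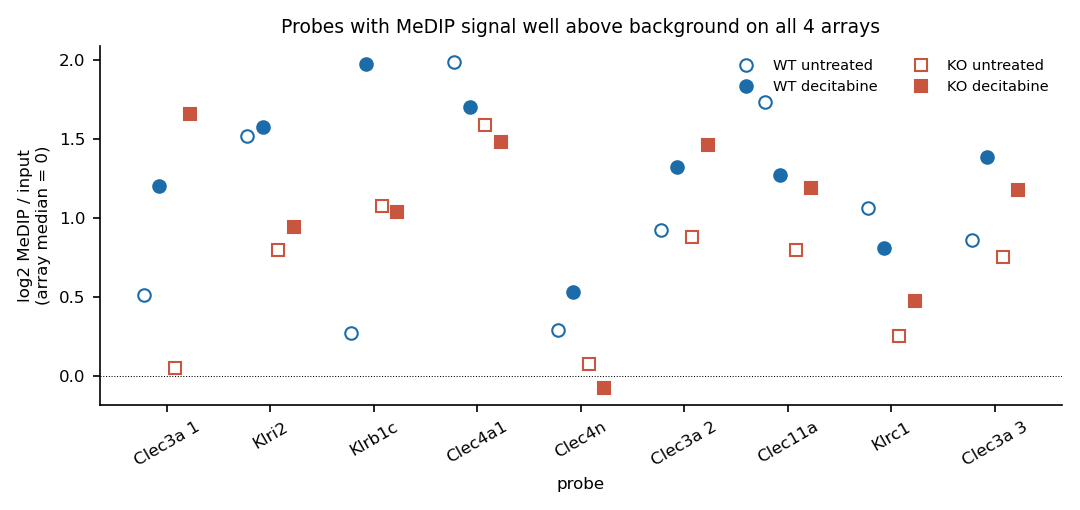
Log2 ratio of MeDIP over input (array median of kept probes at 0) of the 9 receptor gene probes that were bright on all 4 arrays, in order of mean MeDIP signal, for WT (blue circles) and KO (red squares) cells, untreated (open) and with decitabine (filled). The first Clec3a probe went from 0.52 to 1.20 in WT and from 0.05 to 1.66 in KO cells, and the Clec4a1 probe stayed between 1.49 and 1.99.

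No receptor gene was called in any comparison of 2 arrays. A gene was called where its mean differed by at least 2-fold and at least 80% of its probes moved that way. With decitabine in WT cells 0 of 42 genes were called, against 0.742% of all 18332 genes (136). With decitabine in KO cells 0 of 42 were called, against 0.715% (131). Between KO and WT cells 0 of 42 were called without treatment, against 0.36% of all genes (66), and 0 of 42 with decitabine, against 0.562% (103). With all 4 array-wide shares under 1%, counts of 0 in 42 genes do not separate the receptor genes from the rest.

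The median receptor gene lay below the median of all genes in each comparison. With decitabine the median difference was -0.10 in WT and -0.15 in KO cells, against 0.10 and 0.09 over all genes. Both genotypes were below 0 at 23 of 42 genes and above 0 at 6, while 24.1% of all genes were below 0 in both and 48.9% above. KO minus WT had a median of -0.09 without treatment and -0.14 with decitabine, against 0.00 and -0.01 over all genes. The 2812 genes of the array with a mean under 5 CpGs had medians of -0.21 in both decitabine comparisons and -0.21 in both KO comparisons, and the 31 receptor genes with as few CpGs had -0.16, -0.23, -0.10 and -0.15 for decitabine in WT and KO cells and KO against WT without and with decitabine. The 11 receptor genes with 5 CpGs or more had 0.20 and -0.03 for decitabine in WT and KO cells and 0.09 and -0.09 for KO against WT without and with decitabine. The 15512 genes of the array with as many had 0.14, 0.13, 0.04 and 0.02. Across the 42 genes, CpG content and the difference with decitabine had a Pearson correlation of 0.41 in WT and 0.60 in KO cells, against 0.33 and 0.45 over all genes. For KO against WT the correlation was 0.01 without and 0.10 with decitabine, against 0.37 and 0.48. Each is a description across genes that share arrays and input.

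**Figure D4:**
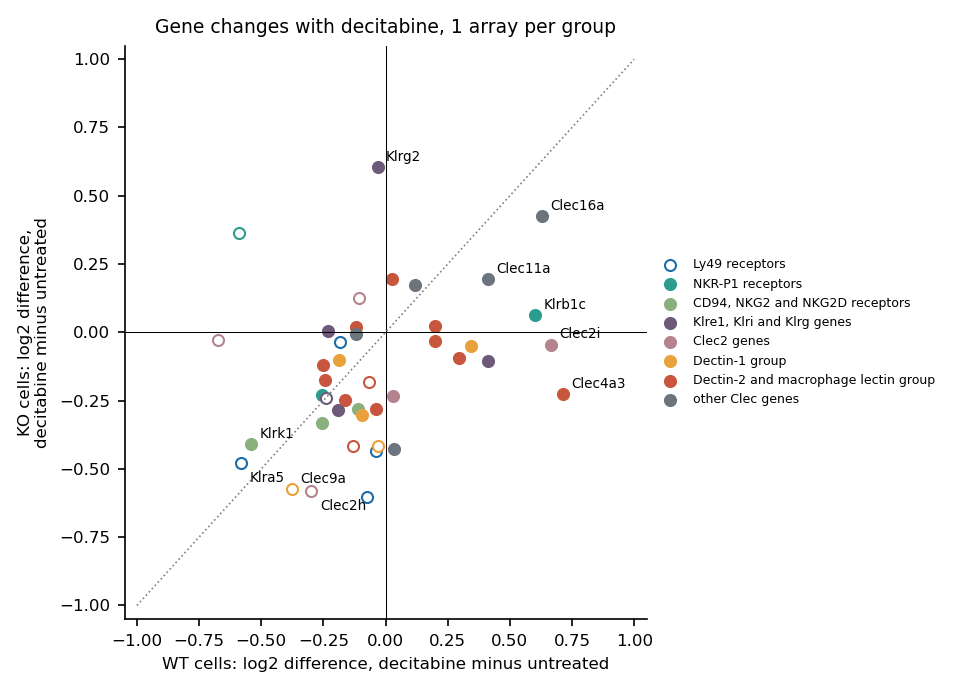
Difference with decitabine (log2, decitabine minus untreated) of each of the 42 genes in WT cells (horizontal) and KO cells (vertical), coloured by group, with filled points for genes with a bright probe on any array and the dotted line marking equal values. The values run from -0.67 to 0.71 in WT and from -0.60 to 0.60 in KO cells, inside the 2-fold line, and 23 genes lie below 0 in both.

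Restricted to probes bright on both arrays of a comparison, the median difference with decitabine was above 0, but still below that of such probes of the array. The sign depends on the centring. Relative to the median of kept probes, the median of probes bright on every array was 0.16 in WT untreated and 0.10 in KO untreated cells. It was 0.60 in WT decitabine and 0.85 in KO decitabine cells. In WT cells 16 receptor probes qualified, 11 were higher with decitabine and their median difference was 0.33, against 0.40 over 12119 such probes of the array. In KO cells 11 qualified, 7 were higher and the median was 0.15, against 0.85 over 13113 probes. For KO against WT without treatment 1 of 9 such probes was higher, with a median of -0.40 against 0.08. With decitabine 25 of 43 were higher, with a median of 0.14 against 0.31.

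A model with additive terms for genotype and treatment over all 4 arrays (limma, 1 residual degree of freedom) was the only test the design allowed. For decitabine, 1 of 42 receptor genes was higher at an adjusted p under 0.05, against 11% of all genes (2011), and 4 were lower, against 3.5% (641). Clec16a rose by 0.53 (SE 0.12, limma adjusted p = 0.024). Klra5 fell by 0.53 (SE 0.12, limma adjusted p = 0.022), Klrk1 fell by 0.47 (limma adjusted p = 0.032), Clec9a fell by 0.47 (limma adjusted p = 0.034) and Clec2h fell by 0.44 (limma adjusted p = 0.047). Klra5, Clec9a and Clec2h had no bright probe on any array. In the MeDIP channel alone, without input, 1800 of all genes were lower by limma and 926 higher, and of the receptor genes 8 and 0. There Klra5 was lower by 0.56 (limma adjusted p = 0.0065), Clec9a by 0.57 (limma adjusted p = 0.0046) and Clec2h by 0.51 (limma adjusted p = 0.010). These values rest on signal not well above background. Clec16a was higher by 0.35 (limma adjusted p = 0.062) and did not pass. The part of the input was not tested. The mean input of all Klra5 probes, relative to the array median, was -0.92 in WT untreated and -0.74 in WT decitabine cells, and -0.73 and -0.42 in KO cells. For Clec9a it was -0.95 and -0.85 in WT and -0.60 and -0.42 in KO cells, and for Clec2h -1.39 and -1.39 in WT and -1.50 and -1.35 in KO cells.

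The number of genes that passed for decitabine depended on the centring and the correction. With arrays centred on probes bright on all 4 arrays, 33 of 42 receptor genes and 10037 of all genes were lower and 0 and 74 higher. Clec16a was then at -0.073, while the 4 genes that fell stayed below 0, from -1.13 for Klra5 to -1.04 for Clec2h. Centred on all probes they lay between -0.39 and -0.30. With loess 0 of 42 receptor genes and 0 of all 18332 passed limma (at an unadjusted p under 0.05, 9 and 2450). With normexp 0 and 644 passed (unadjusted, 7 and 2632), and with the median over probes 0 and 1051 (unadjusted, 7 and 3881). With the median over probes the changes were -0.59 for Klra5, -0.55 for Clec2h, -0.51 for Clec9a, -0.35 for Klrk1 and 0.54 for Clec16a.

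For genotype, 0 of 42 receptor genes were higher in KO cells by limma, against 2.01% of all genes (369), and 1 was lower, against 2.1% (385). Klra17 fell by 0.53 (SE 0.12, limma adjusted p = 0.042). At an unadjusted limma p under 0.05, 8 receptor genes passed for genotype, against 22.6% of all genes, and 9 for decitabine, against 33.1%. The mean input of Klra17 probes was higher in KO cells, at 0.27 against 0.01 without treatment and 0.25 against -0.01 with decitabine, and its part in the result was not tested. Klra17 did not pass with loess, normexp, the median over probes, the MeDIP channel alone or either other centring. Its change was -0.55 with loess, -0.63 with bright centring, -0.47 with all-probe centring, -0.41 with normexp, -0.29 with the median and -0.26 with the MeDIP channel alone.

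**Figure D5:**
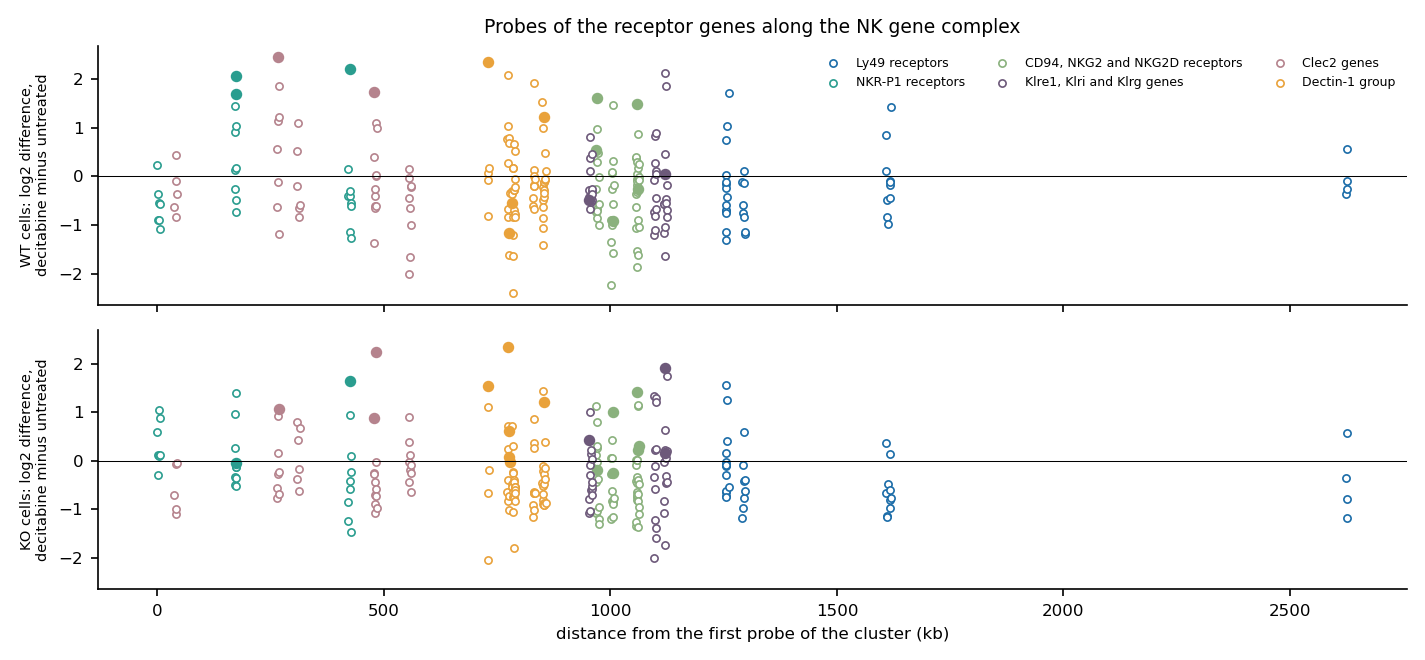
Difference with decitabine (log2) of the 257 kept receptor gene probes of the NK gene complex in WT (top) and KO cells (bottom), by distance from the first probe in kb, coloured by group. Filled points are bright on at least 1 of the 2 arrays compared, and the Ly49 probes on the right have none.

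Within the NK gene complex, 19 of 23 receptor genes were below 0 with decitabine in each genotype and 4 above. Of all genes 37.3% were below 0 in WT and 37.9% in KO cells. Of the 2812 genes with a mean under 5 CpGs, 676 were above 0 in each genotype, so most CpG-poor genes also lay below 0. The 81 kept probes of 6 other named genes in the interval, such as Cd69, an activation antigen, and Olr1, a scavenger receptor, had 1 bright probe on each untreated array, 4 on the WT decitabine and 6 on the KO decitabine array. The receptor genes had 7 and 5 of 257 on the WT and KO untreated arrays and 15 and 20 on the decitabine arrays.

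The input channel, which would be lower in KO cells where DNA is missing, was also compared. Over the 84 probes of all 15 Ly49 names, KO input relative to the array median was above WT by a median of 0.15 without treatment and 0.14 with decitabine, with SDs of 0.71 and 0.61 over probes. For the CD94, NKG2 and NKG2D genes the medians were 0.18 and 0.31, and for the Dectin-1 group 0.08 and 0.12. The NKR-P1 genes had -0.01 and -0.02, the Klre1, Klri and Klrg genes -0.02 and -0.01, the Clec2 genes -0.13 and 0.10, the Dectin-2 group -0.02 and 0.08 and the other Clec genes -0.10 and -0.06. All Klr and Clec probes together had 0.01 and 0.09. Klrk1 had the highest mean difference of the 42 genes, 0.51 ± 0.91 and 0.59 ± 0.79 over 36 probes. Over all probes of the array the medians were -0.04 and -0.10.

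A list of 53 other genes of NK and lectin receptor signalling gave 43 with enough probes. For decitabine, 9 of 43 were higher and 1 lower by limma, beside the 11% and 3.5% of all genes, and 1 (Ptpn11, a phosphatase recruited by inhibitory receptors) was called by the 2-fold rule in WT cells. Among adaptors and kinases 7 of 20 were higher. They included Lat, a T cell adaptor (0.75, limma adjusted p = 0.0074), Tyrobp, the DAP12 adaptor of activating Ly49 receptors (0.53, limma adjusted p = 0.021), and Ptpn6, the phosphatase SHP-1 (0.51, limma adjusted p = 0.024). Of the 12 kept Lat probes, 0 were bright on either untreated array and 6 and 5 on the WT and KO decitabine arrays. Card9, the adaptor of Dectin signalling, rose by 0.49 (limma adjusted p = 0.037) without a bright probe on any array. The lower gene was Ncr1, the NK receptor NKp46, which fell by 0.43 (limma adjusted p = 0.042). Of its 5 kept probes, 0 were bright on either untreated array and 1 on each decitabine array, so its fall rests on signal near background. The medians of the 43 genes were 0.15 in WT and 0.19 in KO cells. For genotype, 3 were higher (Sh2d1b2, Card9 and Runx3) and 1 lower (Fasl), beside the 2.01% and 2.1% of all genes. Sh2d1b2, with 3 kept probes, and Card9 had no bright probe on any array. Runx3 and Fasl had bright probes on the decitabine arrays only.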

How the data were processed

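Each array held Cy3-labelled MeDIP DNA and Cy5-labelled input DNA, both whole-genome amplified, with no dye swap, per the labels' protocols. Intensity values and the log10 ratio (red over green) were deposited as Agilent Feature Extraction output, with release 10.5.1.1 per the file headers (10.5 in the submitters' processing notes), with the signals background-subtracted and dye-normalized and probe positions on mm9. Here log2 of the processed green over red signal was averaged over the spots of a probe. Kept probes had input well above background on all 4 arrays and no outlier flag (328399 of 520554), and each array was centred on their median. The lowest signal called bright differed between arrays and limits what low signals can show, and 1 array per group limits the precision. Genes with at least 3 kept probes entered the comparisons. Each array lay on its own slide, and a slide effect cannot be told apart from a group effect.

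limma 3.58.1 (R 4.3.3) fitted genotype and treatment to gene means, with Benjamini-Hochberg adjustment over 18332 genes, and was tested on simulated data. The labels do not say that samples are separate cultures. Without replicate arrays, what the additive fit leaves over is how far the response to decitabine differed between WT and KO cells. The p-values set each change against that difference, which limma pools over genes, and not against a spread between cultures. Sequences were matched to NCBI build 37, and gene parts were taken from GENCODE annotation. Folds are given only as lower bounds over the probes bright in the higher group, a choice that favours that direction, and other differences as log2. Named genes were those called, those with the largest differences among genes bright on both arrays (4 above and 3 below in each comparison), those bright on all 4 arrays, the 3 with the smallest adjusted p each way and the one with most probes in each group, plus any named as singled out. A probe in exon sequence that the rule selected is described without its letters. The members and lists were chosen with earlier results of these data known. Alternatives covered centring, loess, normexp with an offset of 50, the deposited ratio, the MeDIP channel alone, probe filters, the summary over probes, a minimum of 5 probes and leaving out each array. The authors' value table was not used because its row identifiers matched no probe column.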

Additional observations from a re-analysis of the deposited data

Results flagged for a closer look

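The response to decitabine differed in sign between WT and KO cells for a pair of genes with bright probes on all arrays, below 0 in one genotype and above or near 0 in the other. Over all members 13 of 42 differed in sign between the genotypes, against 27.0% of all genes. Klri2 differed by -0.23 in WT and 0.00 in KO cells, where 7 probes were higher and 7 lower, a KO minus WT response of 0.23. Clec4a1 differed by 0.20 in WT and -0.03 in KO cells, a KO minus WT response of -0.23. With 1 array per group this difference was not tested, and each is below the SD over the probes of its gene. Other genes had larger KO minus WT responses, also not tested. They were -0.54 for Klrb1c, above 0 in both genotypes, -0.94 for Clec4a3, and 0.95 for Klrb1a, which had no bright probe.

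Signal also appeared in probes outside the gene values. Of 485 probes of Klr and Clec genes left out of the gene values, 4 were bright on the WT decitabine array against 2 on the WT untreated array, and 10 on the KO decitabine array against 2 on the KO untreated array.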

How the results depend on the processing

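Relative to all genes, the median difference of the receptor genes with decitabine was below 0 under all 12 settings, from -0.21 to -0.13 in WT and from -0.31 to -0.10 in KO cells. KO against WT it was below 0 under all 12 without treatment and under 11 with decitabine, where the highest was 0.03. Absolute values followed the centring. Centred on probes bright on all 4 arrays, the medians moved to -0.55 in WT and -0.90 in KO cells (all genes -0.35 and -0.66), 3 and 14 receptor genes were called with decitabine, and 33 passed limma (55.2% of all genes). The median levels moved to -0.51 in WT and -0.97 in KO decitabine cells. Centred on all probes, chosen after seeing the data, the median levels were -0.50 in WT and -0.49 in KO untreated cells, and -0.44 in WT and -0.60 in KO decitabine cells. Receptor genes passing limma for decitabine, with all genes in brackets, numbered 8 with the MeDIP channel alone (2726), 2 with the deposited ratio (3288), and 0 with loess (0), normexp (644) or the median over probes (1051), against 5 (2652). For genotype they numbered 4 without the input filter (2801), 2 with the deposited ratio (761), and 0 with the MeDIP channel alone (19), all-probe centring (749), bright centring (238), loess (5), the median over probes (451) or normexp (609), against 1 (754). At an unadjusted limma p under 0.05 those 6 settings gave 2, 4, 5, 10, 2 and 3 receptor genes. Loess called 1 receptor gene (63 of all genes) between untreated KO and WT cells. Clec16a had a limma change of -0.073 with bright centring and -0.062 with loess. The causes were not tested. Without 1 array, the limma changes of the 6 genes that passed kept their sign, from -0.61 to 0.63, with no test. No paired analysis was possible because each group had 1 array. Surrogate MeDIP values limit every level of a gene without a bright probe.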
